A study of Mus musculus with 4 samples.

Results

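The cadherin superfamily and the catenins that anchor it were compared between excitatory and inhibitory neuron nuclei of the mouse brain. The members were 46 genes of the 55487 listed, taken by a rule on the symbol that was set with earlier results of these data known. They were the numbered cadherins, the cadherin-related genes, the flamingo genes Celsr1 to Celsr3, Fat1 to Fat4, and Dchs1 and Dchs2. The rule added the desmosomal genes Dsc1, Dsc2, Dsc3 and Dsg2, the alpha catenins, and Ctnnd1 and Ctnnd2. There were 2 libraries of sorted excitatory nuclei and 2 of sorted inhibitory nuclei, all from wild-type (WT) brains taken whole with the olfactory bulb left out, and all labelled as batch 1. Neither a sort marker, an age nor an animal is given for a library in the sources used here. Nothing thus says that the libraries of a group came from separate animals, and the p-values cover the spread among these 4 libraries, which may be technical. Values were TPM, a transcript abundance scaled by length and library total, which can be compared between genes but keeps no sequencing depth.

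Cadherins are calcium-dependent adhesion proteins of the cell surface. Classical cadherins of types I and II bind partners on the facing cell, mostly of their own kind, while their tails hold p120-type catenins (Ctnnd1, Ctnnd2) and beta-catenin, which alpha catenins link to actin. In the brain this system is known for sorting neurons into layers and nuclei and for holding pre- and postsynaptic membranes together. The giant cadherins work differently: Dachsous on a cell binds Fat on its neighbour, and the flamingo proteins (Celsr) act in planar polarity and axon tract formation.

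Of the 46 members, 34 reached at least 1 TPM in at least 2 libraries and were tested, and all of these reached it in libraries of both groups. The other 12 were not tested, 9 of them with no library at 1 TPM and 3 (Celsr1, Cdhr4 and Dsc3) with 1 such library. By limma on log2(TPM + 1), with Benjamini-Hochberg adjustment over the 26055 genes tested and calls at an adjusted p under 0.05, 2 members were higher in excitatory nuclei (5.88% of 34, against 5.43% of all genes tested). In inhibitory nuclei 7 were higher (20.6%, against 6.62% of all genes tested). The members called were Cdh11 and Fat4 toward excitatory nuclei, and Cdh7, Cdh18, Cdh23, Fat1, Fat2, Dchs1 and Dchs2 toward inhibitory nuclei. The median log2 fold change, excitatory over inhibitory, was 0.02 over the 34 members tested, against -0.07 over all genes tested. Groups did not overlap for 25 of the 34 (73.5%, against 56.2% of all genes tested), with excitatory libraries on top for 13 (23.0% of all genes tested) and inhibitory libraries on top for 12 (33.3% of all genes tested). With median ratio scaling or quantile normalization the split was 6 and 7, as Cdh10, Cdh12, Cdh24 and Ctnnd1 joined the calls toward excitatory nuclei. Over all genes tested the calls toward excitatory nuclei also became more, at 6.88% with median ratio scaling and 6.37% with quantile normalization, against 6.02% and 6.03% called toward inhibitory nuclei, so the overall split turned as well. With any 1 of the 4 libraries left out limma called no gene at all, with the 9 members at adjusted p between 0.0691 and 0.182 and each in its main direction. At an unadjusted p under 0.05, 3 to 6 members were then higher in excitatory and 7 or 8 in inhibitory nuclei, in all 10 to 14 of 34 (29.4% to 41.2%, against 20.4% to 22.3% of all genes tested in the same fits).

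**Figure D1:**
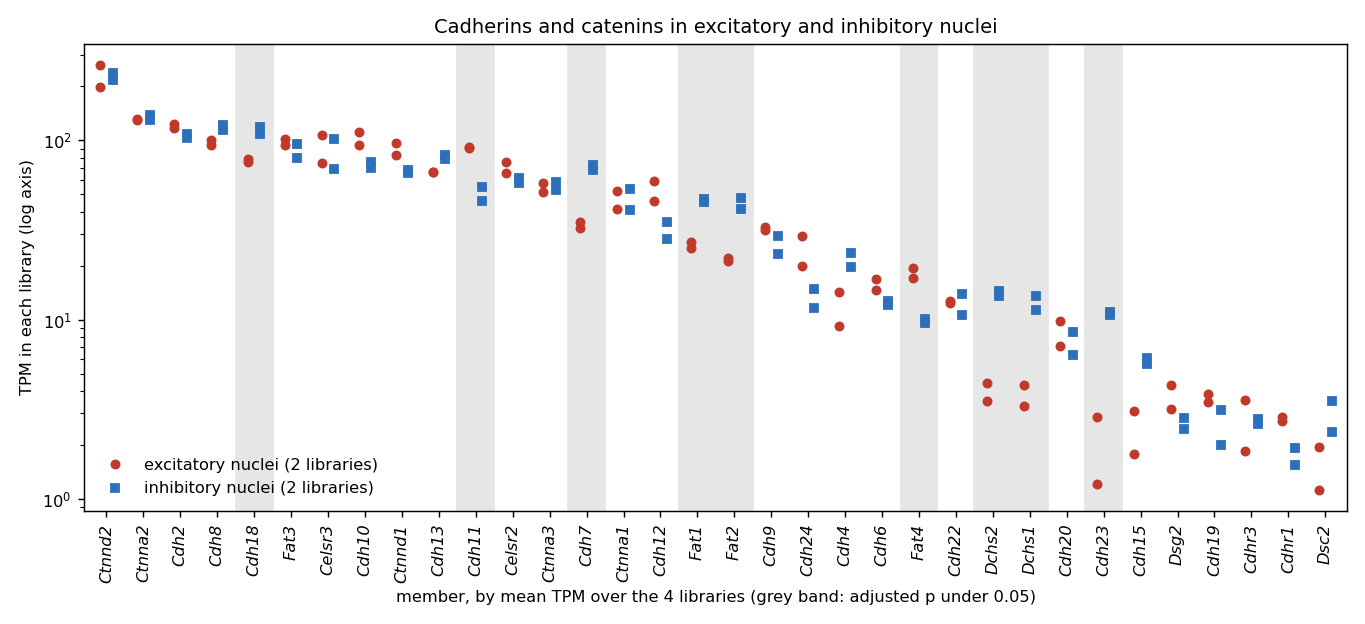
TPM on a log axis in each library for the 34 members tested, ordered by mean TPM, with excitatory libraries as circles left of inhibitory libraries as squares and grey bands on the 9 members called. Mean levels run between 2.23 TPM for Dsc2 and 229 TPM for Ctnnd2, and the pairs of points separate widely in Dchs2, Dchs1 and Cdh23 while Ctnna2 and Ctnnd2 overlap.

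The libraries followed their labels in the summed levels of the excitatory and inhibitory markers listed. Summed over 8 genes, excitatory markers stood at 1017 and 1113 TPM in excitatory nuclei, against 243 and 277 TPM in inhibitory nuclei, and inhibitory markers at 142 and 127 TPM in excitatory nuclei, against 795 and 779 TPM in inhibitory nuclei. Markers of 4 regional neuron types were also higher in inhibitory nuclei. Among them, thalamic and cerebellar granule neurons are mostly excitatory, so the inhibitory libraries were not free of markers of excitatory neurons. Striatal markers summed to 235 and 213 TPM in excitatory nuclei, against 1075 and 1094 TPM in inhibitory nuclei, with 9 of 9 called. Thalamic markers summed to 64.1 and 66.9 TPM in excitatory nuclei, against 231 and 269 TPM in inhibitory nuclei, with 5 of 6 called. Purkinje markers summed to 369 and 358 TPM in excitatory nuclei, against 613 and 653 TPM in inhibitory nuclei, with 5 of 6 called. Most of the Purkinje sum was Itpr1, at 233 and 252 TPM in excitatory nuclei, against 340 and 384 TPM in inhibitory nuclei. Cerebellar granule cell markers are given beside Fat2. The part of these markers in any difference among members was not tested. Astrocyte markers summed to 546 and 595 TPM in excitatory nuclei, against 336 and 285 TPM in inhibitory nuclei, with 1 of 10 called in each direction. The calls were Slc1a2 and Slc4a4. Without Slc1a2, the other 9 summed to 186 and 165 TPM in excitatory nuclei, against 251 and 197 TPM in inhibitory nuclei. Of these, Slc4a4 had 104 and 96.3 TPM in excitatory nuclei, against 192 and 150 TPM in inhibitory nuclei. The order of the sums thus turned on single abundant genes. Excitatory libraries were on top without overlap for 6 of the 10 (23.0% of all genes tested), and inhibitory libraries for 1 (33.3%). Of 9 oligodendrocyte, 7 precursor and 9 microglia markers, none passed (limma). Mural and fibroblast markers summed to 17.8 and 15.3 TPM in excitatory nuclei, against 12.7 and 10.4 TPM in inhibitory nuclei, with 1 of 5 tested, Dcn, called higher in excitatory nuclei. Ependymal and choroid plexus markers summed to 41.9 and 33.8 TPM in excitatory nuclei, against 52.4 and 44.9 TPM in inhibitory nuclei, with 1 of 5 tested, Clic6, called higher in inhibitory nuclei. Endothelial markers summed to between 6.45 and 9.98 TPM in the 4 libraries, with Cldn5, Ly6c1 and Slco1a4 listed at 0 in both inhibitory libraries. In such bulk samples, fewer cells of a type and less RNA per cell cannot be told apart.

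RefSeq promoter windows (GRCm38.p6, 250 bases before to 50 bases after an annotated start) matched 29 of the 46 members, with 34 windows. Since the study concerned the factor EGR1, the windows were searched on both strands for GCGNGGGCG, a form of the EGR site, and for the GC box GGGCGG, which can overlap it. GCGNGGGCG stood in 2 of 34 member windows (5.88%, against 5.55% of 32851 windows), those of Cdh7 and Cdh24. GGGCGG stood in 10 of 34 (29.4%, against 35.7%). The windows of Dchs2 and Cdh7, higher in inhibitory nuclei, and Fat4, higher in excitatory nuclei, are shown because the first 2 are the called members with a match and Fat4 is the member called toward excitatory nuclei that has a window. Capitals mark the matches, each read on the strand opposite to the one printed: 3 GGGCGG in Dchs2 (chr3:83127277-83127576, plus strand), 2 GCGNGGGCG in Cdh7 (chr1:109983052-109983351, plus strand, 1 of its 3 windows), and none in Fat4 (chr3:38886690-38886989, plus strand).
Dchs2: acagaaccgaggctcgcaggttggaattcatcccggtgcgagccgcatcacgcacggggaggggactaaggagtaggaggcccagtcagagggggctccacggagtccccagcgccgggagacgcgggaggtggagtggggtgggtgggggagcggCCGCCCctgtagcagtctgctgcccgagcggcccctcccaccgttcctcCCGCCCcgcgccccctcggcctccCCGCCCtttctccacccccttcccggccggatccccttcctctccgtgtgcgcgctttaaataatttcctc
Cdh7: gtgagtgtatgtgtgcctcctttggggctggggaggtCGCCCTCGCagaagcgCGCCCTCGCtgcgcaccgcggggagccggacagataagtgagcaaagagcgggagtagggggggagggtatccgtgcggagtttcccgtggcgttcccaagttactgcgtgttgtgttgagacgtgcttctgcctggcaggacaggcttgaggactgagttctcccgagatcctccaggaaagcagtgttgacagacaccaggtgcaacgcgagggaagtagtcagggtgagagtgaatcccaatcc
Fat4: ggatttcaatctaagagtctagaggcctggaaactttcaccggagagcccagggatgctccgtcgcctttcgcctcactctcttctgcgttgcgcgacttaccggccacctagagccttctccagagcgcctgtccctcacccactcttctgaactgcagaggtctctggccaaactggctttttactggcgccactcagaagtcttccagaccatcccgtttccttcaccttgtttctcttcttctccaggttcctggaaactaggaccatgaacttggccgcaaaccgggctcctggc
Dchs2 held 27 CG dinucleotides, Cdh7 19 and Fat4 13, against a median of 7 over all windows and 9 over member windows. The other windows of Cdh7 held 18 and 4. Other called members with a window held fewer than those shown, at 12 in Cdh18, 5 in Cdh23, 4 in Fat2 and 2 in Fat1. Whether these start sites were in use in the sorted nuclei was not measured.

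Among the Dachsous and Fat genes, both Dachsous genes and Fat1 and Fat2 were higher in inhibitory nuclei, Fat4 was higher in excitatory nuclei, and Fat3 was not called. All 6 were tested and 5 were called in either direction, where 9 of the 34 members (26.5%) and 12.0% of all genes tested were called. Dchs1, in mouse the ligand of Fat4 (chromosome 7, 105752990 to 105787654, minus strand, mm10), had 4.30 and 3.32 TPM in excitatory nuclei, against 11.3 and 13.5 TPM in inhibitory nuclei. The lower inhibitory library thus stood well above the higher excitatory one. Its log2 fold change was -1.48 ± 0.25 (SE, limma adjusted p = 0.0171), and its call was lost without the filter on low values. Dchs2, its close relative (chromosome 3, 83127948 to 83357209, plus strand), had 3.51 and 4.43 TPM in excitatory nuclei, against 13.5 and 14.5 TPM in inhibitory nuclei. The difference came to 3.52-fold in mean TPM, with inhibitory higher, and to -1.60 ± 0.23 on the log2 scale (limma adjusted p = 0.0110).

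Fat4, the receptor for Dchs1 (chromosome 3, 38886940 to 39011985, plus strand), had 17.1 and 19.5 TPM in excitatory nuclei, against 10.1 and 9.55 TPM in inhibitory nuclei. It stood 1.86-fold higher in excitatory nuclei, with groups apart (log2 fold change 0.83 ± 0.18, limma adjusted p = 0.0364, not called without the filter). The ligand and its receptor were thus called in opposite directions. The ratio of Dchs1 to Fat4 TPM, which no scaling of a library can change, was 0.252 and 0.170 in excitatory nuclei, against 1.12 and 1.42 in inhibitory nuclei. For Dchs2 to Fat4 the ratios were 0.206 and 0.227 in excitatory nuclei, against 1.34 and 1.515 in inhibitory nuclei. Since the groups of these genes lay apart in opposite directions, the ratios had to be apart too and add no separate support. With 2 libraries a side, an exact permutation test of a ratio cannot go below p = 0.333, so none is given.

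Fat1, a regulator of cell polarity and actin (chromosome 8, 44935447 to 45052257, plus strand), had 25.2 and 27.3 TPM in excitatory nuclei, against 45.2 and 47.2 TPM in inhibitory nuclei. The libraries of a group lay close together, and the log2 fold change was -0.79 ± 0.12 (limma adjusted p = 0.0138). Fat2, known from the parallel fibres of cerebellar granule cells (chromosome 11, 55250609 to 55336564, minus strand), had 22.2 and 21.1 TPM in excitatory nuclei, against 47.9 and 41.5 TPM in inhibitory nuclei. Its groups were apart too, at a log2 fold change of -1.01 ± 0.14 (limma adjusted p = 0.00909). Of 7 granule cell markers, 6 were called higher in inhibitory nuclei, and none was at 0. Their summed levels were 192 and 194 TPM in excitatory nuclei, against 407 and 406 TPM in inhibitory nuclei. The largest part was Reln, at 58.2 and 64.3 TPM in excitatory nuclei, against 161 and 178 TPM in inhibitory nuclei. Fat3, which in mouse retina shapes amacrine cell dendrites, was the most abundant gene of this subfamily, at 94.6 and 102 TPM in excitatory nuclei, against 79.4 and 95.3 TPM in inhibitory nuclei. Its groups overlapped (log2 fold change 0.17 ± 0.12, limma adjusted p = 0.435). Fat3 took 56.7% and 57.3% of the summed TPM of the 6 genes in excitatory libraries, against 38.3% and 43.0% in inhibitory libraries. The sum itself was 167 and 177 TPM in excitatory nuclei, against 207 and 222 TPM in inhibitory nuclei.

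**Figure D2:**
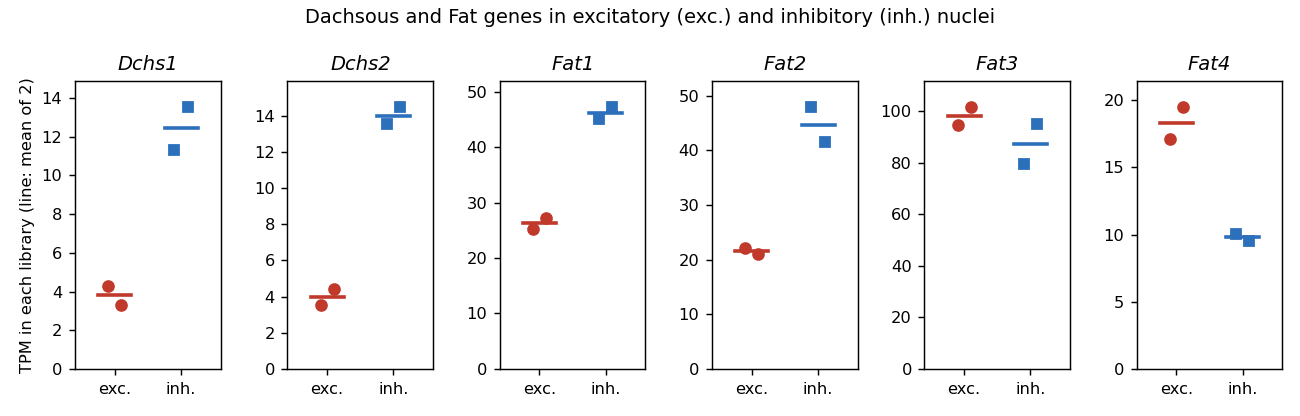
TPM of Dchs1, Dchs2 and Fat1 to Fat4 in each library, with the mean of 2 libraries as a line and each axis from 0. Excitatory points (circles, left) lie under inhibitory points (squares, right) in Dchs1, Dchs2, Fat1 and Fat2, above them in Fat4, and overlap them in Fat3.

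Type II classical cadherins, the largest group with 13 members of which 12 were tested, went both ways. Cdh11 was higher in excitatory nuclei, Cdh7 and Cdh18 were higher in inhibitory nuclei, and the other 9 did not pass. Cdh7 (chromosome 1, 109982431 to 110140157, plus strand) had 32.5 and 35.2 TPM in excitatory nuclei, against 73.0 and 68.4 TPM in inhibitory nuclei. Inhibitory libraries thus held 2.09-fold more on average, a log2 fold change of -1.04 ± 0.11 (limma adjusted p = 0.00516). This call and those of Fat1, Fat2 and Dchs2 held under all 7 alternatives that kept the 4 libraries. Cdh18 (chromosome 15, 22549022 to 23474418, plus strand) had 78.5 and 75.3 TPM in excitatory nuclei, against 119 and 109 TPM in inhibitory nuclei. The groups were apart, at a log2 fold change of -0.56 ± 0.10 (limma adjusted p = 0.0227). It lost its call when low genes stayed in or the variance prior had no trend.

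Cdh11, first described in osteoblasts (chromosome 8, 102632095 to 102785642, minus strand), had 91.3 and 91.0 TPM in excitatory nuclei, against 54.7 and 45.6 TPM in inhibitory nuclei. Both excitatory libraries exceeded both inhibitory ones, by 1.82-fold on average (log2 fold change 0.85 ± 0.12, limma adjusted p = 0.0113, lost when the variance prior had no trend). Cdh10 fell just short of a call, at 94.2 and 111 TPM in excitatory nuclei, against 75.4 and 70.5 TPM in inhibitory nuclei (log2 fold change 0.48 ± 0.12, limma adjusted p = 0.0539). Cdh12 did so too, at 45.7 and 59.6 TPM in excitatory nuclei, against 34.9 and 28.3 TPM in inhibitory nuclei (0.71 ± 0.18, limma adjusted p = 0.0536). These 2 genes, with groups apart, were called toward excitatory nuclei with median ratio scaling, quantile normalization or a filter of at least 5 TPM. Cdh24 was the other type II member that joined with both scalings, at 20.03 and 29.4 TPM in excitatory nuclei, against 11.7 and 14.8 TPM in inhibitory nuclei (0.84 ± 0.23, limma adjusted p = 0.0734).

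Cdh8 was the most abundant type II cadherin over the 4 libraries, at 101 and 94.6 TPM in excitatory nuclei, against 122 and 114 TPM in inhibitory nuclei. The groups were apart by a small difference that was not called (log2 fold change -0.27 ± 0.10, limma adjusted p = 0.146). Cdh9, which in mouse hippocampus acts at synapses of mossy fibres, averaged 32.4 ± 0.914 TPM in excitatory nuclei and 26.3 ± 4.43 TPM in inhibitory nuclei (SD, n = 2 each). Cdh6 averaged 15.7 ± 1.54 TPM in excitatory nuclei and 12.4 ± 0.425 TPM in inhibitory nuclei, without overlap, and neither was called. Cdh22, named for pituitary and brain, averaged 12.6 ± 0.240 TPM in excitatory nuclei and 12.3 ± 2.37 TPM in inhibitory nuclei. Groups overlapped for Cdh22 and for Cdh20, which averaged 8.48 ± 1.94 TPM in excitatory nuclei and 7.47 ± 1.55 TPM in inhibitory nuclei. Cdh19, a cadherin of glial lineages, averaged 3.67 ± 0.260 TPM in excitatory nuclei and 2.57 ± 0.814 TPM in inhibitory nuclei. The endothelial cadherin Cdh5 was not tested, at 0.219 and 0.249 TPM in excitatory nuclei and listed at 0 in both inhibitory libraries.

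Set against each other within a library, several classical cadherins took different shares in the groups, while the sums of all 18 overlapped. The 18 genes of types I and II summed to 673 and 702 TPM in excitatory nuclei, against 690 and 641 TPM in inhibitory nuclei. Cdh2 had the largest share in excitatory libraries, 18.4% and 16.8%, against 15.7% and 16.0% in inhibitory libraries, where Cdh8 led at 17.7% and 17.8%. Cdh18 made up 11.7% and 10.7% in excitatory libraries, against 17.3% and 17.02% in inhibitory libraries. For Cdh7 the shares were 4.83% and 5.01% in excitatory libraries, against 10.6% and 10.7% in inhibitory libraries. Cdh11 went the other way, with 13.6% and 13.0% in excitatory libraries, against 7.94% and 7.11% in inhibitory libraries. Cdh10 had 14.0% and 15.8% in excitatory libraries, against 10.9% and 11.0% in inhibitory libraries. A share does not depend on how a library was scaled, and each of these sets of shares was apart between the groups. The genes named here were among those whose TPM did not overlap either, as held for 56.2% of all genes tested. Cdh2, Cdh8 and Cdh10 were not called. Shares overlapped for Cdh22, at 1.89% and 1.77% in excitatory libraries, against 1.54% and 2.17% in inhibitory libraries, and for Cdh20. No test of the shares was made.

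**Figure D3:**
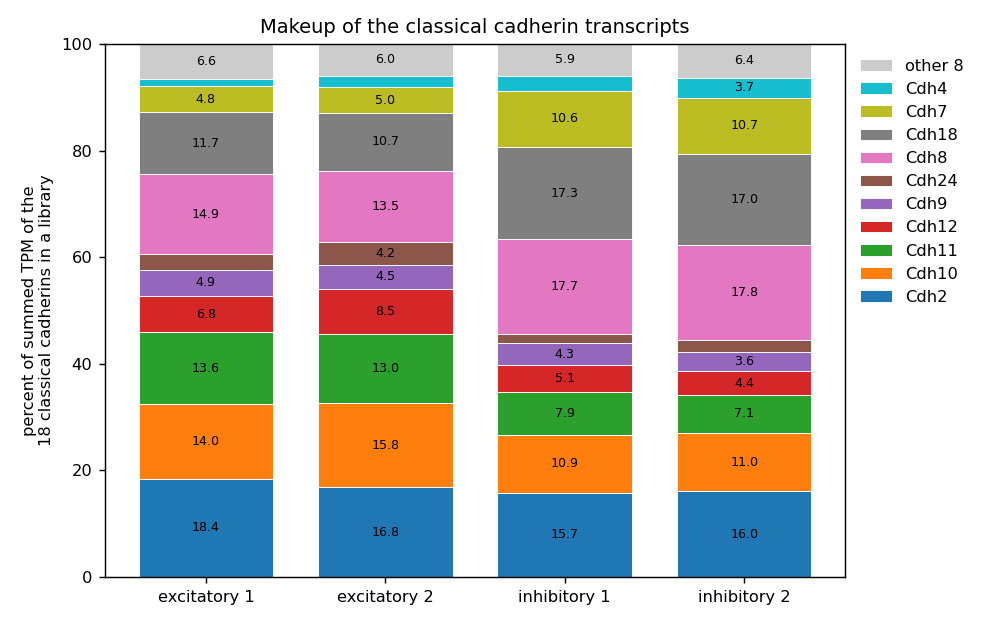
Percent of the summed TPM of the 18 classical cadherins taken by each of 10 genes, and by the other 8 together, in each library, with excitatory libraries left of inhibitory ones. Cdh11 takes 13.6% and 13.0% in excitatory libraries, against 7.94% and 7.11% in inhibitory libraries, while Cdh7 and Cdh18 take larger shares in inhibitory libraries.

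Type I cadherins were represented mainly by Cdh2 (N-cadherin), a component of neuronal and synaptic adherens junctions. It had 124 and 118 TPM in excitatory nuclei, against 109 and 103 TPM in inhibitory nuclei. Although its groups did not overlap, the difference was not called (log2 fold change 0.19 ± 0.10, limma adjusted p = 0.270). Cdh4 (R-cadherin, known from the retina) had 9.24 and 14.3 TPM in excitatory nuclei, against 19.6 and 23.6 TPM in inhibitory nuclei. Cdh15 (M-cadherin, known from muscle and also from cerebellar granule cells) had 3.11 and 1.77 TPM in excitatory nuclei, against 6.12 and 5.67 TPM in inhibitory nuclei. Inhibitory libraries were on top in both genes without overlap, and neither passed, at limma adjusted p = 0.0775 for Cdh4 (-0.85 ± 0.24) and 0.0865 for Cdh15 (-1.03 ± 0.31). The type I sum was 136 and 134 TPM in excitatory nuclei, against 135 and 132 TPM in inhibitory nuclei. Cdh2 made up 90.9% and 88.0% of it in excitatory libraries, against 80.6% and 77.7% in inhibitory libraries. The epithelial genes Cdh1 and Cdh3 were at or under 0.210 TPM in each library.

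The remaining cadherins included the gene with the largest log2 fold change among members tested, Cdh23. Cdh23, which forms the tip links of inner ear hair cells (chromosome 10, 60302748 to 60696490, minus strand), had 1.22 and 2.88 TPM in excitatory nuclei, against 10.6 and 11.0 TPM in inhibitory nuclei. The excitatory libraries differed from each other by 81.2% of their mean, the widest spread among members tested, yet both lay far under the inhibitory ones. Mean TPM was 5.26-fold higher in inhibitory nuclei, a log2 fold change of -2.005 ± 0.34 (limma adjusted p = 0.0179, not called without the filter). With excitatory replicate 1 left out it was -1.60 and with excitatory replicate 2 left out -2.41. Cdh13, a cadherin with a lipid anchor in place of a tail, had 66.3 and 66.6 TPM in excitatory nuclei, against 79.2 and 82.4 TPM in inhibitory nuclei. The groups were apart but the difference was not called (-0.28 ± 0.10, limma adjusted p = 0.134). The kidney and gut cadherins Cdh16 and Cdh17 were at or under 0.156 TPM, and Cdh26 was listed at 0 in all 4 libraries.

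The flamingo genes, which organise planar polarity and axon tracts, gave no call. Celsr3 had 74.8 and 107 TPM in excitatory nuclei, against 69.6 and 102 TPM in inhibitory nuclei. Replicate 2 was the higher library in both groups, and the spread within a group exceeded the difference between them (log2 fold change 0.08 ± 0.24, limma adjusted p = 0.863). Celsr2 had 66.0 and 75.6 TPM in excitatory nuclei, against 57.6 and 61.5 TPM in inhibitory nuclei. Its groups were apart without a call (0.24 ± 0.12, limma adjusted p = 0.246). Celsr1, the form of early epithelia, was not tested, at 0.757 and 0.459 TPM in excitatory nuclei, against 1.52 and 0.906 TPM in inhibitory nuclei.

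The 3 alpha catenins, the link to actin, lay near 0 and were not called. Ctnna2, the neuronal form, had 130 and 132 TPM in excitatory nuclei, against 129.7 and 138 TPM in inhibitory nuclei, with overlapping groups (log2 fold change -0.03 ± 0.09, limma adjusted p = 0.892). Ctnna3 averaged 54.4 ± 4.37 TPM in excitatory nuclei and 55.8 ± 4.18 TPM in inhibitory nuclei (SD, n = 2 each). Ctnna1, the epithelial form, averaged 46.6 ± 7.65 TPM in excitatory nuclei and 47.2 ± 8.79 TPM in inhibitory nuclei. Overlap held for all 3. Their shares of the alpha catenin sum were 56.6%, 23.4% and 19.99% on average in excitatory libraries, against 56.6%, 23.5% and 19.9% in inhibitory libraries, for Ctnna2, Ctnna3 and Ctnna1. Ctnnd2, the neural delta-catenin, was the most abundant of all members and above 98.8% of the genes tested. It had 199 and 263 TPM in excitatory nuclei, against 218 and 238 TPM in inhibitory nuclei, and the inhibitory libraries lay within the excitatory range (log2 fold change 0.00 ± 0.15, limma adjusted p = 0.989). Ctnnd1 (p120), its widely expressed relative, had 82.4 and 96.3 TPM in excitatory nuclei, against 66.1 and 68.2 TPM in inhibitory nuclei. It was not called as deposited (0.40 ± 0.12, limma adjusted p = 0.0815) but was called toward excitatory nuclei with both scalings. The ratio of Ctnnd2 to Ctnnd1 was 2.42 and 2.73 in excitatory nuclei, against 3.303 and 3.49 in inhibitory nuclei.

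**Figure D4:**
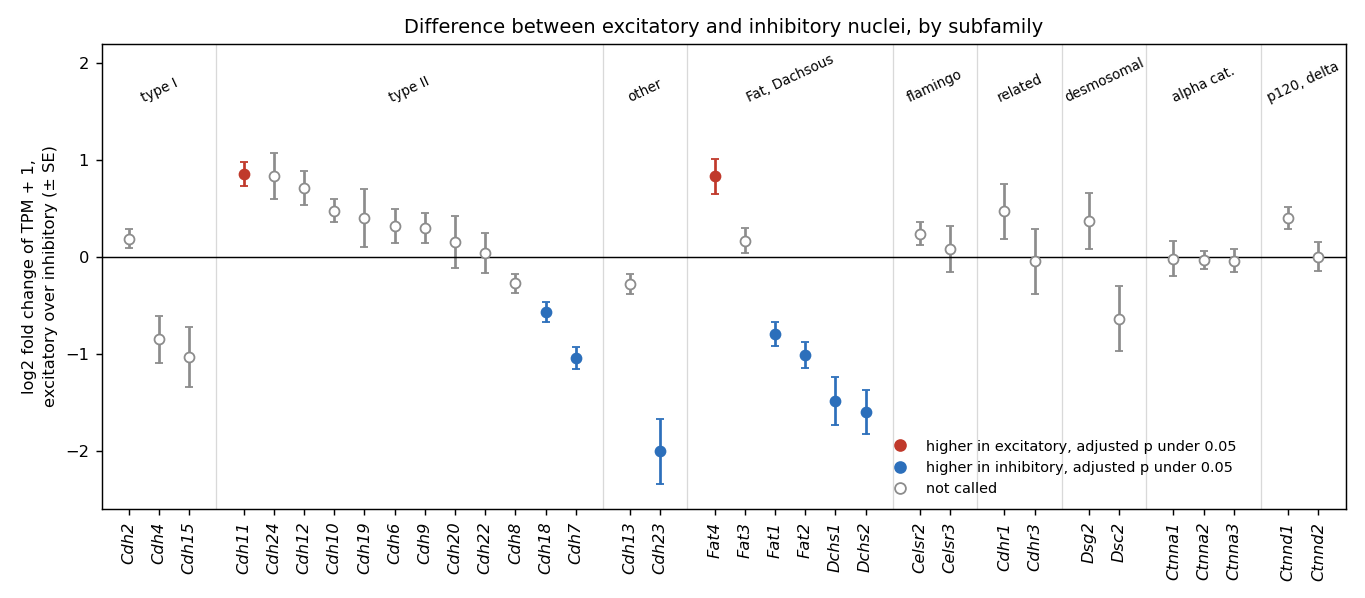
Log2 fold change of TPM + 1, excitatory over inhibitory, with its standard error for the 34 members tested, by subfamily, with filled points for calls. The calls toward inhibitory nuclei fall in the type II, Fat and Dachsous and remaining cadherin groups, while the alpha catenins lie within 0.04 of 0.

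Desmosomal and cadherin-related genes were low. Dsg2 averaged 3.76 ± 0.821 TPM in excitatory nuclei and 2.65 ± 0.254 TPM in inhibitory nuclei (SD, n = 2 each). Dsc2 averaged 1.54 ± 0.578 TPM in excitatory nuclei and 2.93 ± 0.807 TPM in inhibitory nuclei. Neither was called. Dsc3 stood at 1.04 and 0.795 TPM in excitatory nuclei, against 0.214 and 0.134 TPM in inhibitory nuclei. It missed the filter, having reached 1 TPM in a single library, and Dsc1 was at or under 0.0983 TPM. Cdhr1, a photoreceptor cadherin, averaged 2.80 ± 0.0981 TPM in excitatory nuclei and 1.74 ± 0.266 TPM in inhibitory nuclei and was not called (limma adjusted p = 0.343). Cdhr3, known as a virus receptor of the human airway, averaged 2.70 ± 1.21 TPM in excitatory nuclei and 2.72 ± 0.121 TPM in inhibitory nuclei. Cdhr4, not tested, had 0.830 and 1.24 TPM in excitatory nuclei, against 0.525 and 0.300 TPM in inhibitory nuclei. Of the gut brush border genes, Cdhr2 was under 1 TPM in each library and Cdhr5 was listed at 0 in all.

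Several type II genes lie next to each other in the genome with no protein-coding gene annotated between them, and neighbours stood on both sides of 0. On chromosome 15, Cdh6, Cdh9, Cdh10, Cdh12 and Cdh18 follow each other over gaps of 3.56, 1.96, 1.44 and 0.959 megabases. The first 4 had log2 fold changes of 0.32, 0.30, 0.48 and 0.71, and none was called. Their excitatory libraries lay above the inhibitory ones, as in 23.0% of all genes tested. Cdh18 at the end of the run was called higher in inhibitory nuclei. On chromosome 8, Cdh8 (-0.27, not called) and Cdh11 (0.85, called) are separated by 3.22 megabases. On chromosome 1, Cdh7 (-1.04, called) and Cdh19 (0.40, not called) are 0.748 megabases apart. Neither the difference between neighbours nor the order along a chromosome was tested.

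**Figure D5:**
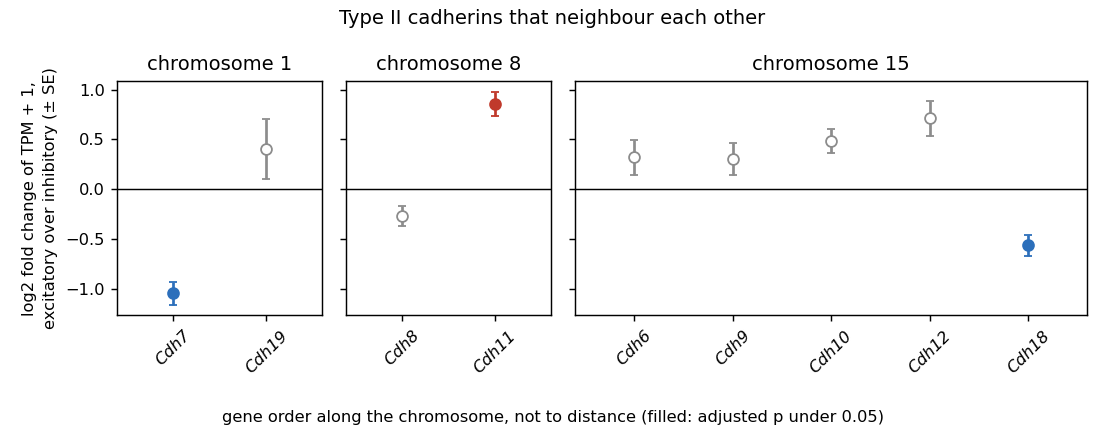
Log2 fold change of TPM + 1, excitatory over inhibitory, with its standard error for type II cadherins in their order along 3 chromosomes, evenly spaced. Cdh18 lies at -0.56 beside 4 genes between 0.30 and 0.71, and Cdh11 and Cdh8 lie on opposite sides of 0.

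Member genes ranged in span from 7.2 kb for Cdhr4 to 1573.6 kb for Ctnna3. The 7 longest tested members, of 591.1 kb and more, had a median of 92.7 TPM, against 16.7 TPM for the 27 shorter ones, with median log2 fold changes of -0.03 for the longest and 0.08 for the shorter ones. Exons overlap another annotated gene on the same strand in 4 members and on the opposite strand in 9. Gm28635 shares 4482 of the 7319 exonic bases of Ctnnd1 on the same strand and was listed at 0 in all 4 libraries. How reads in the shared bases were assigned is not given. Gm49685 shares 198 exonic bases with Cdh12 on the same strand, and had 44.4 and 80.2 TPM in excitatory nuclei, against 15.3 and 25.1 TPM in inhibitory nuclei (log2 fold change 1.56, limma adjusted p = 0.0353). Among called members, Fat1, Fat4, Dchs1 and Dchs2 overlap an antisense gene, a noncoding gene or a pseudogene on the other strand. The overlapping genes were all under 6 TPM, Gm10710 beside Dchs2 for example at 1.37 and 0.659 TPM in excitatory nuclei, against 2.92 and 2.86 TPM in inhibitory nuclei. The library kit marks strand per the labels' protocols, but no source says that counting used it.

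Of 68 partner genes outside the family, listed for junctions, cadherin processing, planar polarity and the Fat pathway, 64 were tested. Toward excitatory nuclei 6 were called (against 5.43% of all genes tested) and toward inhibitory nuclei 5 (against 6.62%), with a median log2 fold change of 0.01. No catenin or armadillo partner was called among 7 tested (limma), with 1 of them, Pkp2, at an unadjusted p under 0.05. Ctnnb1, beta-catenin, had 119 and 135 TPM in excitatory nuclei, against 149 and 143 TPM in inhibitory nuclei (-0.21 ± 0.11, limma adjusted p = 0.272). Among 16 junction linkers, Nectin3, an adhesion receptor beside cadherins, was higher in excitatory nuclei at 73.0 and 80.4 TPM, against 34.3 and 38.4 TPM in inhibitory nuclei. Its relative Nectin2 and the actin regulators Vasp and Enah were called higher in inhibitory nuclei. Nectin2 had 3.23 and 2.17 TPM in excitatory nuclei, against 6.99 and 7.72 TPM in inhibitory nuclei. Vasp had 7.02 and 4.43 TPM in excitatory nuclei, against 15.8 and 16.2 TPM in inhibitory nuclei. Enah, far more abundant, had 130 and 134 TPM in excitatory nuclei, against 186 and 190.1 TPM in inhibitory nuclei.

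Of 13 genes of cleavage and trafficking, 2 were called toward excitatory and 1 toward inhibitory nuclei (against 5.43% and 6.62% of all genes tested). The list holds 3 proprotein convertases, a grouping made after the values were seen, of which 2 were called, in opposite directions. Pcsk5 had 37.6 and 39.7 TPM in excitatory nuclei, against 15.0 and 15.3 TPM in inhibitory nuclei. Pcsk6 had 5.85 and 3.56 TPM in excitatory nuclei, against 19.2 and 27.6 TPM in inhibitory nuclei. Furin, the third, had 12.5 and 15.6 TPM in excitatory nuclei, against 16.1 and 19.2 TPM in inhibitory nuclei, and was not called (limma adjusted p = 0.358). The lipid kinase gene Pip5k1c was called too, higher in excitatory nuclei at 132 and 156 TPM, against 87.6 and 88.1 TPM in inhibitory nuclei. Of 12 core planar polarity genes, Prickle1 and Prickle2 were called higher in excitatory nuclei. Prickle1 had 44.1 and 52.0 TPM in excitatory nuclei, against 22.2 and 21.3 TPM in inhibitory nuclei, and Prickle2 had 78.3 and 80.4 TPM in excitatory nuclei, against 52.8 and 52.6 TPM in inhibitory nuclei. Vangl1, their membrane partner, had 1.96 and 0.806 TPM in excitatory nuclei, against 11.2 and 10.1 TPM in inhibitory nuclei. Its groups lay far apart (log2 fold change -2.33 ± 0.33, limma adjusted p = 0.0103). Of 16 Fat and Hippo pathway genes, Frmd6 alone was called, higher in excitatory nuclei at 67.7 and 89.0 TPM, against 25.7 and 27.4 TPM in inhibitory nuclei (log2 fold change 1.52 ± 0.16, limma adjusted p = 0.00464).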

How the data were processed

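RNA of sorted nuclei was measured in 2 excitatory and 2 inhibitory libraries, with ribosomal RNA removed and a kit that marks strand, per the labels' protocols. The authors deposited TPM values, 1 column per library, each column summing to between 999833 and 999891. The submitters' processing notes name fastp 0.23.4, HISAT2 2.2.1, Bowtie2 2.3.5, StringTie 2.2.1 and the build mm10, with no role, order or annotation release. TPM keeps no depth, so the depth per library is unknown and no counting interval is given.

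The 26055 genes that reached 1 TPM in 2 or more libraries were fitted on log2(TPM + 1) with limma 3.58.1 in R 4.3.3 (variance trend, 2 residual degrees of freedom), with two-sided p-values adjusted by Benjamini-Hochberg over all of them. Folds are ratios of mean TPM. The fit was tested on simulated data with known changes. Columns were matched to samples by the labels' column names. No column was a copy of another (89 and 93 identical values within the groups). Positions and overlaps came from GENCODE M21 (GRCm38, the assembly of mm10), which held all 46 members. Plots used matplotlib 3.10.9 (Python 3.11.15).

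The members, lists and tests were chosen with earlier results of these data known. Every member could be named, and those called or among the 12 most abundant have their value in each library. Partner genes named are those called, at most 4 per list, and also Ctnnb1, Pkp2 and Furin, which were not called and were chosen after their values were seen, as were the markers Slc1a2, Dcn and Clic6. Alternatives were another pseudocount (0.1), no filter, a filter of at least 5 TPM, median ratio scaling, quantile normalization, no variance trend, a replicate block, and each library left out.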

Additional observations from a re-analysis of the deposited data

How the results depend on the processing

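Under the 7 alternatives that kept all 4 libraries, the 9 calls among members kept their direction. Fewer than 9 remained without the filter and with no variance trend. Without the filter 1 was called toward excitatory and 4 toward inhibitory nuclei. There 37740 genes were tested, with 666 (1.76%) and 740 (1.96%) of all genes called in those directions. With no variance trend 1 was called toward excitatory and 6 toward inhibitory nuclei, against 3.86% and 5.59% of all genes tested. More were called toward excitatory nuclei with a filter of at least 5 TPM (4 members, and 7.13% of all genes tested), median ratio scaling (6, and 6.88%) and quantile normalization (6, and 6.37%). For partner genes, median ratio scaling gave 10 toward excitatory nuclei (6.88% of all genes), and no filter gave 2 toward inhibitory nuclei (1.96% of all genes). The cause of these changes was not tested. A fit with the replicate block gave 6 members toward excitatory and 8 toward inhibitory nuclei. It gave 11 partner genes toward excitatory nuclei (7.47% and 9.14% of all genes toward excitatory and inhibitory nuclei). Replicate numbers share nothing in the labels beyond the number, and deviations correlated at 0.0957 over all genes tested. Of the 34 members tested, replicate 2 was above replicate 1 in both groups for 15 and below in both for 9. For 10 the direction was opposite, and the share over all genes was not taken. The SE of Celsr3 was 0.079 with the block, against 0.24 without it. Whether libraries of a number are paired thus cannot be told, so the block is not used for the main calls. With 1 library left out, limma had 1 residual degree of freedom, assumed that the lone library varies like the other group, and called 0 of all genes, members and partner genes in either direction in each of the 4 fits (smallest adjusted p 0.0545, with 5311 to 5812 genes at an unadjusted p under 0.05). Uncalled members near 0 changed sign: Ctnnd2 to -0.048 with quantile normalization and between -0.19 and 0.20 with a library left out, Ctnna2 to 0.047 with median ratio scaling and between -0.072 and 0.017, and Celsr3 between -0.19 and 0.36. Without depth in TPM, precision rests on 2 libraries a group.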
